A study of Mus musculus with 2 samples.

Results

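This is an account of 39 cell cycle genes in single-cell RNA libraries of mouse lung, followed from the whole library into the cell classes and then into the cells that carried them. The members are a list of gene symbols, and all 39 of them were found among the 32285 genes of the deposited matrices. They fall into 14 S-phase members, which license and copy DNA or supply its building blocks, 22 mitotic members, which drive and carry out chromosome segregation, and 3 broad members, Stmn1, Hmgb2 and Tubb5, which dividing cells make in quantity but other cells also make. Both libraries came from C57BL/6 mice with the SP-CI73T genotype, a mutant form of surfactant protein C, the secreted protein that marks alveolar type 2 cells. One library is titled injured, and the series describes that state as 14 days after injury. The other is titled control and is described as steady state. According to the protocol, the mutant protein increases once a neomycin cassette is cut out, which gavage with tamoxifen in corn oil (175 mg/kg) brings about. The tags for treatment say the opposite of the titles: untreated for the injured library, tamoxifen treated for the control one. The titles were used to name the groups, and every direction below holds only as far as they do. Lungs were lavaged and perfused before digestion with collagenase D, and the lavage can take airspace cells. With 1 library in each group, and no count of animals behind either in the labels, there was no replicate and no test between conditions. Each value therefore stands with an exact 95% interval that covers counting error only.

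The injured library kept 2302 cells and 19909619 UMIs (unique molecular identifiers, each standing for 1 captured RNA molecule), and the control library kept 2298 cells and 16000943 UMIs. The median cell held 3277.5 UMIs in the injured library and 4487 in the control library, and 1 cell barcode was shared between the libraries. Cells were sorted into 17 marker-defined classes from 23 clusters, which were built without cell cycle genes so that a class was not made of the members. The 8 classes with at least 50 cells in each library were compared.

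A dividing cell first loads the MCM helicase on its DNA, then copies the DNA in S phase with the PCNA clamp and a supply of deoxynucleotides, and then rises through cyclin A and cyclin B activity into mitosis, where kinases, motors and the anaphase-promoting complex separate the chromosomes. The genes of the first part are largely switched on by E2F factors at the G1 to S transition, and those of the second part by the MuvB complex with B-Myb and FoxM1, which acts through the cell cycle homology region (CHR) and nearby CCAAT boxes. In the healthy adult lung most cells are quiescent, and alveolar macrophages are known to maintain themselves by dividing in place.

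The promoter letters of the 2 arms are shown because the members are read below as an S-phase and a mitotic set. Those printed were picked from members with many UMIs whose window holds a CHR or E2F match. These matches were therefore fixed by the choice. Of the 39 members, 33 had a promoter in the RefSeq table (GRCm38.p6), and Mcm4, Gins2, Stmn1, Aurkb, Ccna2 and Tpx2 are named only. The window is the 250 bases before the annotated start. The searches covered both strands, for the CHR letters TTTGAA, for CCAAT, and for the E2F letters TTT, then CC, GG, CG or GC, then CGC, and none of these letter strings contains another. Capitals mark these matches in either direction, and a longer run of capitals is made of matches that overlap. Mki67 is the proliferation antigen of dividing nuclei and Ube2c the ubiquitin-conjugating enzyme of the anaphase-promoting complex, and both are mitotic members. Mcm6 and Mcm5 are subunits of the helicase. Mki67 lies on the minus strand at chr7:135716380-135716629, Ube2c on the plus strand at chr2:164769679-164769928, Mcm6 on the minus strand at chr1:128359706-128359955 and Mcm5 on the plus strand at chr8:75109259-75109508.
Mki67: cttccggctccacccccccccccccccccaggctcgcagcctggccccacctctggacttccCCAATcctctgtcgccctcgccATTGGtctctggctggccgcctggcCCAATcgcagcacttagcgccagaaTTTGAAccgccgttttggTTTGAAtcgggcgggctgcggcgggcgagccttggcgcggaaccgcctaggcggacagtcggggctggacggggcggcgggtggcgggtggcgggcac
Ube2c: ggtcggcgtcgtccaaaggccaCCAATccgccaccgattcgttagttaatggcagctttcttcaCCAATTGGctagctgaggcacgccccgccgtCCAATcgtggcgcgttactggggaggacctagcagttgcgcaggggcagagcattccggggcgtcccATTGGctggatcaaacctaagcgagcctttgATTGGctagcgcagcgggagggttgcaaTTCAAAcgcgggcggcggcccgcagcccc
Mcm6: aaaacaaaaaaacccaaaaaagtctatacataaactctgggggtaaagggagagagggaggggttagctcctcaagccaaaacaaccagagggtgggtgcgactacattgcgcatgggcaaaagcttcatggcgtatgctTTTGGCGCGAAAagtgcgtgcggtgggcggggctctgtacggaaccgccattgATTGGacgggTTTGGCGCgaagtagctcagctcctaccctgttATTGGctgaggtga
Mcm5: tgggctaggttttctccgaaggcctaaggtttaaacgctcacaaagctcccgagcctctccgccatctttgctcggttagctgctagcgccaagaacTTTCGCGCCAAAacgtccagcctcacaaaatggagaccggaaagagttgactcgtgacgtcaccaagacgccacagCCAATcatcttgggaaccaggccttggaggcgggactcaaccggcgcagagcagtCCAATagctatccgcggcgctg
Shares were counted by gene, and a gene counted when any of its promoters held the letters. The CHR letters were found for 7 of the 19 mitotic genes with a promoter (36.8%) and 1 of the 12 S-phase genes (8.33%). Of the 27025 genes of the table, 18.3% had them. The E2F letters were found for 3 of 12 S-phase genes (25%, Mcm5, Mcm6 and Mcm7), 1 of 19 mitotic genes (5.26%, Cdk1) and 2.16% of all genes. CCAAT was found for 17 of 19 mitotic genes (89.5%), 9 of 12 S-phase genes (75.0%) and 37.5% of all genes. A match is a description of the letters in this window.

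Over the whole library the members differed little between injured and control lung. Summed, the S-phase members stood at 493.7 CPM (UMIs of a gene scaled to a common total per library or class) in the injured library and 412.1 CPM in the control library (ratio 1.20, 1.16 to 1.24). The mitotic members stood at 483.6 CPM in the injured library and 447.3 CPM in the control library (1.08, 1.05 to 1.12). The broad members went the other way, at 800.6 CPM in the injured library and 934.6 CPM in the control library (0.857, 0.838 to 0.876). A gene was called by size when the libraries differed by at least 1.5-fold with at least 10 UMIs between them. By this rule 6 of 39 members were higher in the injured library, against 21.5% of the 15737 genes tested, and 1 was lower, against 17.3% of genes. Both shares of members were below the background of all genes, but that background includes genes with as few as 10 UMIs. The member with fewest UMIs, Aurka, had 131 in the injured library and 63 in the control library. The shares were not compared at equal counts. The median log2 ratio was 0.13 over the S-phase members and 0.11 over the mitotic members, beside 0.06 over all genes tested.

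**Figure D1:**
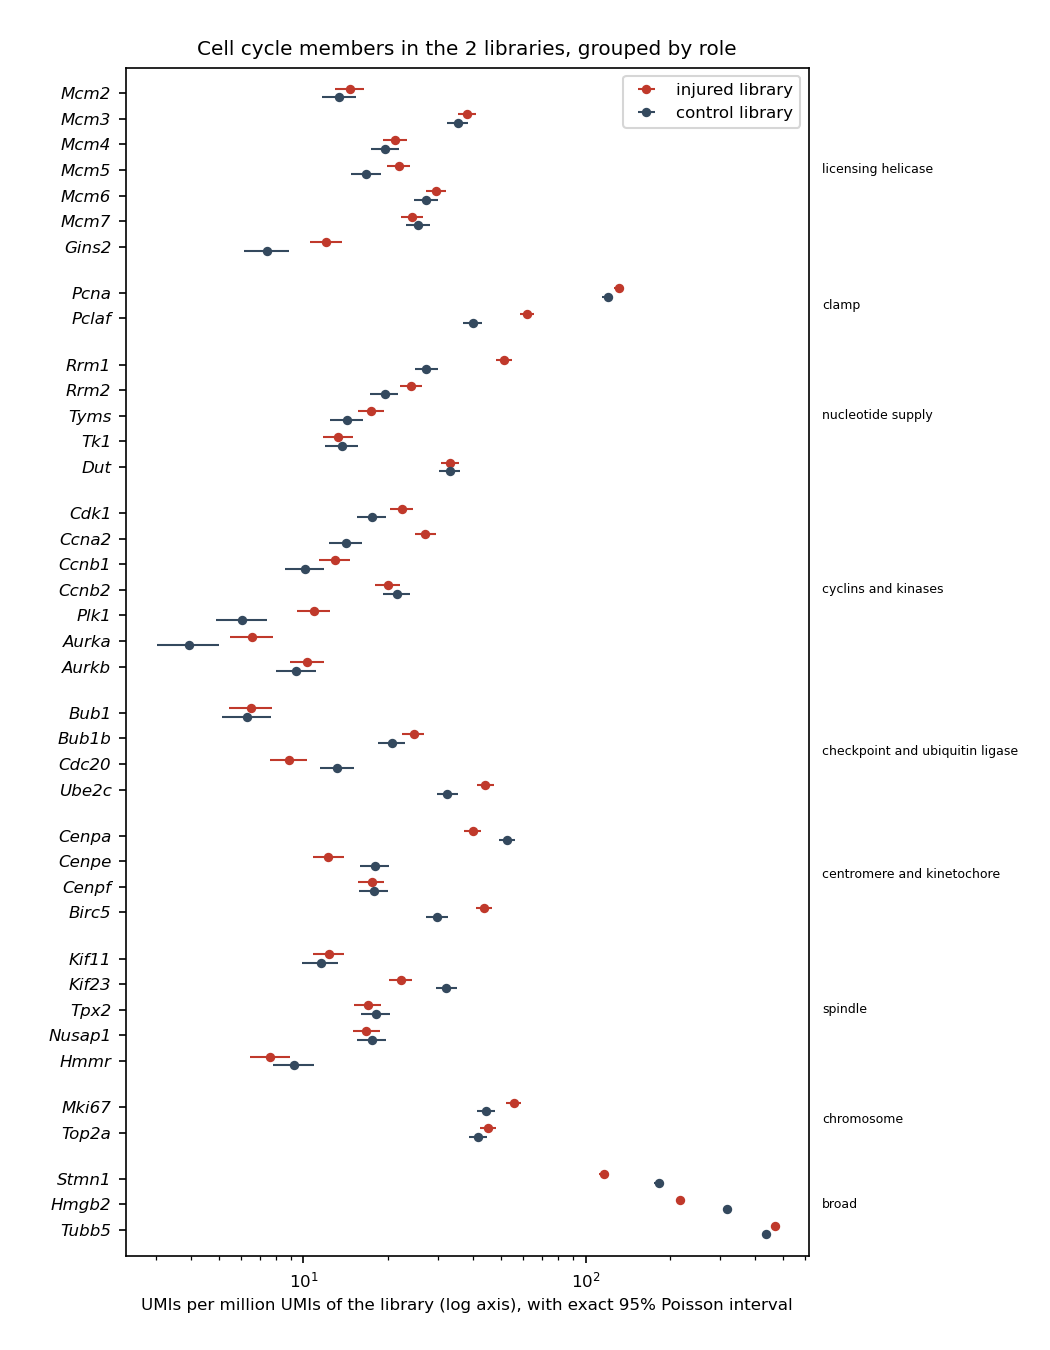
Each row is 1 member, grouped by role, with its CPM in the injured library (red, upper point) and in the control library (dark, lower point) on a log axis, and bars for the exact 95% Poisson interval. Rrm1, Ccna2 and Plk1 sit apart with the injured library higher, Stmn1 sits apart with the injured library lower, and most other pairs lie close together.

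Among the helicase members, Gins2, a subunit that joins the MCM ring to the moving fork, was the one past the threshold. It had 12.1 CPM in the injured library and 7.44 CPM in the control library (1.62, 1.30 to 2.04). Mcm5, a ring subunit, had 21.7 CPM in the injured library and 16.7 CPM in the control library (1.30, 1.12 to 1.52). The other 5 ring subunits, Mcm2, Mcm3, Mcm4, Mcm6 and Mcm7, had ratios between 0.95 and 1.09, and each interval included 1. Of the clamp members, Pcna, the sliding clamp itself, had 131 CPM in the injured library and 120 CPM in the control library (1.10, 1.03 to 1.16). Pclaf, the PCNA-associated factor of replicating cells, had 61.9 CPM in the injured library and 39.7 CPM in the control library (1.56, 1.41 to 1.72). The ratio of the partner was thus larger than that of the clamp, and the difference between them was not tested. Pclaf was found in 157 injured and 66 control cells, and Pcna in 857 injured and 713 control cells.

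The nucleotide supply members were uneven. Rrm1, the large subunit of ribonucleotide reductase, had 51.4 CPM in the injured library and 27.2 CPM in the control library (1.89, 1.68 to 2.11). Rrm2, the small subunit that limits the enzyme in cycling cells, had 24.1 CPM in the injured library and 19.4 CPM in the control library (1.24, 1.07 to 1.44). The 2 subunits of 1 enzyme therefore differed by unequal amounts. Tyms, thymidylate synthase, had 17.3 CPM in the injured library and 14.2 CPM in the control library (1.22, 1.03 to 1.44). Tk1, the thymidine kinase of S phase, had 13.3 CPM in the injured library and 13.7 CPM in the control library (0.97, 0.81 to 1.16). Dut, which clears dUTP, had 33.1 CPM in the injured library and 33.0 CPM in the control library (1.003, 0.89 to 1.13).

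The cyclins and kinases were the mitotic role with the highest ratio, 110 CPM in the injured library and 82.6 CPM in the control library (1.33, 1.24 to 1.43). Ccna2, cyclin A2, which acts from S phase into G2, had 27.1 CPM in the injured library and 14.1 CPM in the control library (1.92, 1.64 to 2.25). Plk1, the polo-like kinase of mitotic entry, had 10.9 CPM in the injured library and 6.06 CPM in the control library (1.80, 1.41 to 2.31). Aurka, the spindle-pole Aurora kinase, had 6.58 CPM in the injured library and 3.94 CPM in the control library (1.67, 1.23 to 2.29). These 3 were the mitotic members past the threshold. Cdk1, the kinase that cyclins A and B activate, had a ratio of 1.277 (1.10 to 1.49), and Ccnb1, cyclin B1, 1.27 (1.04 to 1.56). Ccnb2, cyclin B2, at 0.93 (0.80 to 1.08), and Aurkb, the Aurora kinase of the centromere, at 1.09 (0.88 to 1.36), had intervals that included 1.

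Among checkpoint and ubiquitin ligase members, Ube2c had 44.2 CPM in the injured library and 32.4 CPM in the control library (1.36, 1.22 to 1.52). Cdc20, the activator of the same ligase, had 8.89 CPM in the injured library and 13.2 CPM in the control library (0.67, 0.55 to 0.83), just inside the threshold on the lower side. The ligase's enzyme and its activator thus lay on opposite sides of 1. Part of the Cdc20 count came from few cells. Mesothelial-like cells held 13.7% of its control UMIs, and 1 cell gave all 149 control mitotic UMIs of that class. Alveolar epithelial-like cells held 16.9% of its injured UMIs, and 1 cell gave 73.1% of the injured mitotic UMIs there. The checkpoint kinases Bub1, at 1.03 (0.79 to 1.36), and Bub1b, at 1.19 (1.04 to 1.38), lay between Ube2c and Cdc20. At the centromere, Birc5 (survivin) had 43.6 CPM in the injured library and 29.7 CPM in the control library (1.47, 1.31 to 1.64). Cenpe, the kinetochore motor, had 12.3 CPM in the injured library and 17.9 CPM in the control library (0.69, 0.58 to 0.82). Cenpa, the centromeric histone, was at 0.76 (0.69 to 0.84) and Cenpf at 0.98 (0.84 to 1.15).

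The spindle members, summed, were lower in the injured library, at 75.6 CPM in the injured library and 88.4 CPM in the control library (0.855, 0.795 to 0.92). Kif23, a motor of the midbody, had 22.1 CPM in the injured library and 32.1 CPM in the control library (0.69, 0.60 to 0.78). The other spindle members were within their counting error of no difference. Kif11, the motor that separates the poles, was at 1.07 (0.88 to 1.30), Tpx2 at 0.93 (0.80 to 1.10), Nusap1 at 0.96 (0.81 to 1.12) and Hmmr at 0.83 (0.65 to 1.04). Of the chromosome members, Mki67 had 55.6 CPM in the injured library and 44.3 CPM in the control library (1.25, 1.14 to 1.38), and Top2a, the topoisomerase that untangles sister chromosomes, 45.2 CPM in the injured library and 41.6 CPM in the control library (1.09, 0.98 to 1.20). Stmn1 (stathmin), which loosens microtubules, was the member past the threshold on the lower side, with 116 CPM in the injured library and 181 CPM in the control library (0.64, 0.60 to 0.67). Hmgb2, a chromatin protein, was at 0.68 (0.65 to 0.71) and Tubb5, a beta-tubulin, at 1.07 (1.04 to 1.11).

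Most of this RNA came from 1 class. The alveolar macrophage-like cells numbered 510 of 2302 in the injured library and 470 of 2298 in the control library and gave 40.8% of all injured UMIs and 42.7% of all control UMIs. They held 78.2% of the mitotic UMIs in the injured library and 73.9% in the control library, and 66.1% of the S-phase UMIs in the injured library and 69.1% in the control library. The class was the largest holder of each of the 39 members in the injured library, from 45.3% of Hmgb2 to 88.1% of Pclaf. In the control library it was the largest holder of each as well, from 35.3% of Cenpa to 92.7% of Bub1b. Cells of this class lie in clusters that the libraries barely shared. Cluster 1, led by Marco, Ctsk, Spp1 and Chil3, had 401 injured and 0 control cells. Cluster 3, led by Fabp1, Ear1, Cpne5 and Krt79, had 3 injured and 353 control cells. Cluster 9, a shallow cluster led by Il18 and Fabp4 with a median of 956 UMIs, had 106 injured and 117 control cells.

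**Figure D2:**
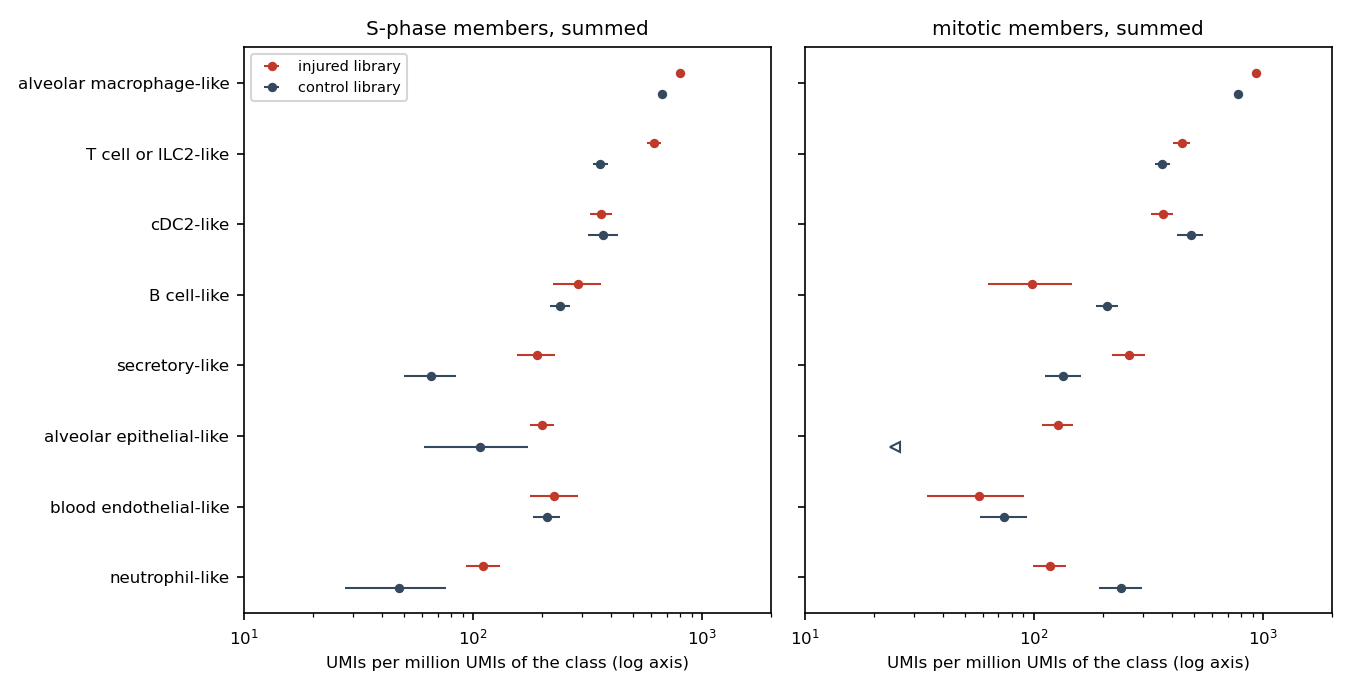
CPM within the class (log axis) of the summed S-phase members (left) and mitotic members (right) in the 8 compared classes, with the injured library in red above the control library in dark, and exact 95% Poisson intervals. The alveolar macrophage-like class is highest in both panels and both libraries, and the open triangle is the upper limit for alveolar epithelial-like cells of the control library, which had 0 mitotic UMIs.

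Within alveolar macrophage-like cells, both sets had a ratio of 1.20. The mitotic members stood at 928 CPM in injured cells and 775 CPM in control cells (1.20, 1.16 to 1.24), and the S-phase members at 800 CPM in injured cells and 667 CPM in control cells (1.20, 1.15 to 1.25). In this class 8 of 39 members were past the threshold on the higher side, against 14.8% of the 11871 genes tested, and 0 on the lower side, against 21.4% of genes. The median log2 ratio was 0.24 for S-phase and 0.13 for mitotic members, while the median over all genes in this class was -0.10. The cyclins and kinases again had the highest ratio by role, 220 CPM in injured cells and 152 CPM in control cells (1.45, 1.34 to 1.57), and the spindle members had the lowest of the S-phase and mitotic roles, 140 CPM in injured cells and 156 CPM in control cells (0.896, 0.823 to 0.975).

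Ccna2 had the highest ratio of the class, with 462 UMIs (56.9 CPM) in injured cells and 181 UMIs (26.5 CPM) in control cells (2.15, 1.80 to 2.56). Aurka had 101 UMIs in injured cells and 43 in control cells (1.98, 1.37 to 2.89). Rrm1 had 715 UMIs in injured cells and 321 in control cells (1.87, 1.64 to 2.14). These led the 8, and the rest were Plk1 at 1.81 (1.39 to 2.38), Birc5 at 1.68 (1.48 to 1.91), Pclaf at 1.61 (1.45 to 1.78), Ube2c at 1.58 (1.39 to 1.79) and Ccnb1 at 1.51 (1.21 to 1.90). At the other end, Cenpe had 186 UMIs (22.9 CPM) in injured cells and 224 UMIs (32.8 CPM) in control cells (0.70, 0.57 to 0.85). Kif23 had 290 UMIs (35.7 CPM) in injured cells and 340 UMIs (49.8 CPM) in control cells (0.72, 0.61 to 0.84). Stmn1 had 198 CPM in injured cells and 275 CPM in control cells (0.72, 0.67 to 0.77). Cdc20 (0.79), Hmgb2 (0.87) and Hmmr (0.90) had the next lowest ratios. The member ratios of the class thus lay on both sides of 1, and whether the members shifted together was not tested. The intervals treat UMIs as independent, although some members came from few cells. Over all classes, Ccna2 was found in 109 injured and 48 control cells. Cluster 9, where the libraries did share cells, went against the class: its mitotic members stood at 601 CPM in injured cells and 1182 CPM in control cells (0.508, 0.402 to 0.64), and its S-phase members at 781 CPM in injured cells and 1499 CPM in control cells (0.521, 0.424 to 0.638). That cluster gave 110 of 7530 injured and 235 of 5291 control mitotic UMIs of the class.

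The sets were then followed cell by cell. A cell was marked as mitotic or S-phase when at least 3 members of that set had a UMI, and each cell was first thinned to 1000 UMIs, since deeper cells show more members. Of alveolar macrophage-like cells, 46 of 447 injured (10.3%, 7.63 to 13.5, exact binomial) and 28 of 404 control cells (6.93%, 4.65 to 9.86) were marked as mitotic, a ratio of 1.48 with an interval from 0.909 to 2.47. By S-phase members, 41 of 447 injured (9.17%, 6.66 to 12.2) and 22 of 404 control cells (5.45%, 3.44 to 8.13) were marked (1.68, 0.98 to 2.97). At this depth neither difference was outside its counting interval. When the deeper cells of the class were thinned to 10000 UMIs, a depth chosen after the data were seen, 80 of 302 injured cells (26.5%) and 44 of 316 control cells (13.9%) were marked as mitotic (1.90, 1.30 to 2.81). By S-phase members 121 of 302 injured cells (40.1%) and 98 of 316 control cells (31.0%) were marked there (1.29, 0.982 to 1.70). The mitotic interval then excluded 1 and the S-phase interval did not. Before thinning, 169 of 510 injured cells (33.1%) and 95 of 470 control cells (20.2%) were marked as mitotic, at median depths of 14312.5 UMIs in injured and 15950.5 in control cells of the class. Without Kif23, Cenpa and Bub1b, members chosen because much of their RNA lay in unmarked cells, 38 of 447 injured and 28 of 404 control cells were marked at 1000 UMIs (1.23, 0.733 to 2.08).

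**Figure D3:**
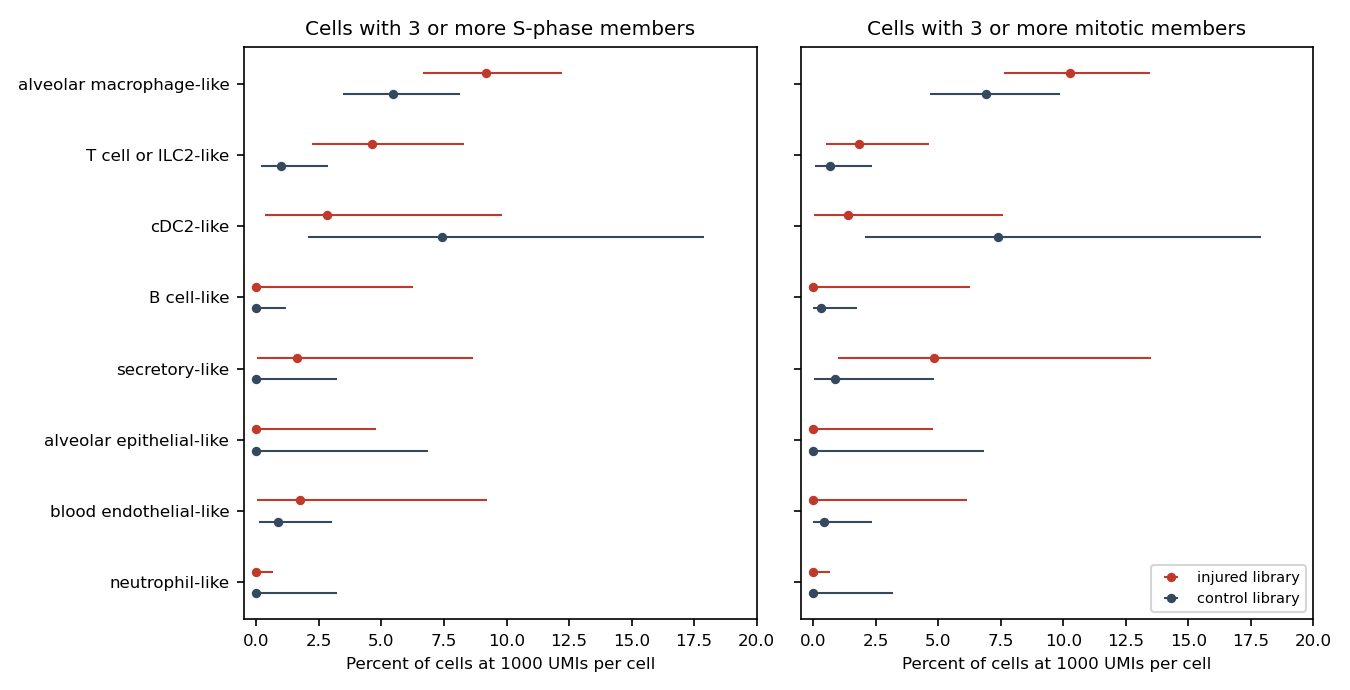
Percent of cells with at least 3 S-phase members (left) or mitotic members (right) after each cell was thinned to 1000 UMIs, in the 8 compared classes, with the injured library in red above the control library in dark and exact binomial 95% intervals. The alveolar macrophage-like class reaches 10.3% of injured and 6.93% of control cells in the mitotic panel, while neutrophil-like cells are at 0 in both libraries.

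Neutrophils do not divide after they leave the marrow, and neutrophil-like cells served as the background for the marked shares. Free RNA was not measured apart from RNA of the cells themselves. At 1000 UMIs, 0 of 541 injured and 0 of 113 control neutrophil-like cells were marked as mitotic. The exact upper limits of these shares were 0.68% in injured and 3.21% in control cells. Median depths before thinning were 2058 UMIs in injured and 2690.5 in control cells. Over whole libraries, 55 of 2026 injured (2.71%, 2.05 to 3.52) and 38 of 1959 control cells (1.94%, 1.38 to 2.65) were marked as mitotic (1.40, 0.909 to 2.18). By S-phase members, 57 of 2026 injured (2.81%) and 33 of 1959 control cells (1.68%) were marked (1.67, 1.07 to 2.65). Both ratios moved with the UMIs drawn. Another random draw gave 56 injured and 32 control cells for the mitotic set (1.69, 1.08 to 2.7) and 46 injured and 32 control cells for the S-phase set (1.39, 0.866 to 2.26), so the interval that excluded 1 was that of the other set.

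The marked cells were few and deep. In full counts 224 injured and 122 control cells were marked as mitotic, with medians of 24182 UMIs in injured and 18445.5 in control cells, beside 2891.5 in injured and 4363.5 in control unmarked cells. They held 27.2% of all injured and 14.4% of all control UMIs. Their share of the mitotic UMIs, which the choice of cells bears on, was 90.0% in the injured library and 84.8% in the control library, and they held 67.5% of the injured and 54.1% of the control S-phase UMIs. Of the marked cells, 184 of 224 injured (82.1%) and 90 of 122 control cells (73.8%) also had at least 3 S-phase members. By class, 169 of the 224 injured (75.4%, 69.3 to 80.9) and 95 of the 122 control marked cells (77.9%, 69.5 to 84.9) were alveolar macrophage-like, a class with 22.2% of injured and 20.5% of control cells.

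For each member the marked cells were also chosen again without it, by the other members, so that its place in them was not fixed by the choice. Hmmr, Plk1 and Bub1 were then almost confined to marked cells. Hmmr had 98.7% of its UMIs there in the injured library and 99.3% in the control library, Plk1 98.6% (injured) and 97.9% (control), and Bub1 96.9% (injured) and 98.0% (control). Pclaf was the S-phase member most like them, at 96.4% in the injured library and 97.2% in the control library, followed by Rrm2 at 93.7% (injured) and 90.0% (control). Other mitotic members had much of their RNA elsewhere, with Bub1b at 58.9% in the injured library and 56.5% in the control library and Cenpa at 59.8% (injured) and 43.6% (control). Kif23 was at 70.5% in the injured library and 55.6% in the control library. Pcna was the lowest S-phase member in the injured library, at 51.4% in the injured library and 43.4% in the control library. In alveolar macrophage-like cells that were not marked (341 injured, 375 control), the mitotic set was at 71.5 CPM in injured cells and 73.0 CPM in control cells (0.979, 0.835 to 1.15). The S-phase set there was at 249 CPM in injured cells and 285 CPM in control cells (0.875, 0.806 to 0.95). Kif23 and Mki67, named after their values were seen, stood apart in those unmarked cells, although both helped to choose them. Kif23 had 4 UMIs in injured cells and 64 in control cells, and Mki67 had 41 UMIs in injured cells and 15 in control cells.

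**Figure D4:**
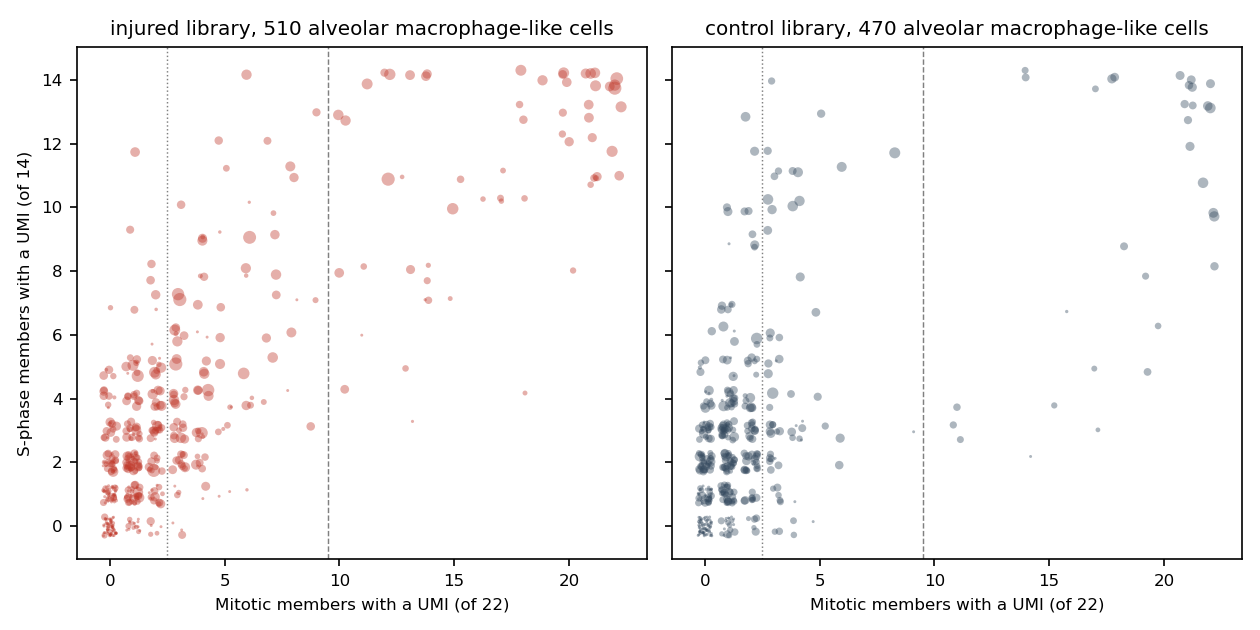
Each point is 1 alveolar macrophage-like cell, with injured cells on the left and control cells on the right, placed by how many of the 22 mitotic members (x axis) and of the 14 S-phase members (y axis) had a UMI, with a small random offset and an area that grows with the cell's UMIs. The dotted and dashed lines mark 3 and 10 mitotic members, and the injured panel has more cells between 5 and 9 members (39 injured, 10 control cells) and with at least 10 (59 injured, 32 control cells).

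A stricter count gave the same order. At least 10 mitotic members were found in 59 of 510 injured (11.6%, 8.92 to 14.7) and 32 of 470 control alveolar macrophage-like cells (6.81%, 4.70 to 9.48), and in 13 of 1792 injured and 8 of 1828 control cells of other classes. At the top of the scale 31 injured and 21 control macrophage-like cells had 18 to 22 members, and in the middle 39 injured and 10 control cells had 5 to 9. Of these strongly mitotic macrophage-like cells, 45 of 59 injured and 19 of 32 control cells also had at least 10 S-phase members. Their median depth was 29066 UMIs in injured cells and 22573.5 in control cells.

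The S-phase and broad members played no part in choosing the strongly mitotic macrophage-like cells. Of these sets, the broad members differed most between the libraries, and the mitotic members were not ranked one by one there. Stmn1 stood at 657 CPM in injured cells and 1871 CPM in control cells, 2.85-fold lower in injured cells (2.62 to 3.09). Hmgb2 stood at 773 CPM in injured cells and 1545 CPM in control cells, 1.999-fold lower (1.84 to 2.17). Tubb5 stood at 1443 CPM in injured cells and 2773 CPM in control cells, 1.92-fold lower (1.81 to 2.04). All 3 were lower in injured cells here, while the Tubb5 ratio was 0.98 (0.92 to 1.05) in unmarked macrophage-like cells. The S-phase set was at 2672 CPM in injured cells and 3106 CPM in control cells (0.86, 0.82 to 0.906). Within it Tk1, at 0.57 (0.45 to 0.71), and Rrm2, at 0.66 (0.56 to 0.78), were lowest, and Mcm5 highest at 1.31 (0.99 to 1.75). The intervals treat UMIs as independent, although they come from 59 injured and 32 control cells. The mitotic share of a cell's UMIs, which the choice bears on, had a median of 0.417% in injured and 0.628% in control cells. When members were counted at 10000 UMIs per cell, 40 of 302 injured and 27 of 316 control cells had at least 10. In those cells Stmn1 was 2.67-fold lower in injured cells (2.45 to 2.92), Hmgb2 1.69-fold lower (1.55 to 1.84) and Tubb5 1.76-fold lower (1.65 to 1.88). The broad members were also lower in strongly mitotic injured cells of other classes (13 injured, 8 control, full counts). Ratios there were 0.35 (0.29 to 0.42) for Stmn1, 0.25 (0.22 to 0.29) for Hmgb2 and 0.77 (0.65 to 0.91) for Tubb5.

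T cell or ILC2-like cells (217 injured, 308 control) had S-phase members at 617 CPM in injured cells and 359 CPM in control cells (1.72, 1.55 to 1.91), and mitotic members at 441 CPM in injured cells and 364 CPM in control cells (1.21, 1.08 to 1.36). In this class 18 of 39 members were past the threshold on the higher side, against 40.9% of the 10102 genes tested, and 3 on the lower side (Ccnb1, Ccnb2 and Cenpa), against 6.53% of genes. The median log2 ratio over all genes of the class was itself 0.41, beside 0.76 for the S-phase and 0.37 for the mitotic members. Among members with at least 50 UMIs, the highest ratios were those of Rrm1 at 2.84 (1.79 to 4.59), Mki67 at 2.72 (1.91 to 3.91), Pclaf at 2.42 (1.64 to 3.62), Mcm5 at 2.39 (1.46 to 3.99), Top2a at 2.07 (1.501 to 2.85) and Mcm3 at 1.996 (1.33 to 3.01). The lowest was Cenpa, with 69 UMIs in injured cells and 188 in control cells (0.56, 0.42 to 0.74), followed by Hmgb2 at 0.81 (0.72 to 0.90), Tubb5 at 0.98, Mcm4 at 1.04, Birc5 at 1.05 and Stmn1 at 1.10, whose intervals, apart from that of Hmgb2, included 1.

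Summed by cluster, the S-phase ratios lay nearer to 1 than in the class, and the mitotic ratios lay below 1. In cluster 8 much of the control counts came from 1 cell. Cluster 8, led by Cxcr6, Icos, Ikzf2, Ctla4, Il2ra and Gata3, had 147 injured and 86 control cells, and cluster 6, led by Lef1, Dapl1, Cd8b1 and Tcf7, had 70 injured and 222 control cells. In cluster 8 the S-phase members stood at 759 CPM in injured cells and 752 CPM in control cells (1.01, 0.891 to 1.15), and the mitotic members at 589 CPM in injured cells and 1064 CPM in control cells (0.553, 0.49 to 0.624). In cluster 6 the S-phase members stood at 258 CPM in injured cells and 210 CPM in control cells (1.23, 0.962 to 1.56), and the mitotic members at 70.1 CPM in injured cells and 98.4 CPM in control cells (0.713, 0.446 to 1.10). The mitotic ratio was above 1 in the class and below 1 in both of its clusters, and cluster 8, with the higher levels, gave 147 of 217 injured and 86 of 308 control cells. At a 10% mitochondrial limit the log2 ratio of the class was -0.60 in place of 0.28. The counts also rest on few cells: 1 cell gave 37.1% of the mitotic UMIs in the injured class and 1 gave 44.3% in the control class. That control cell lay in cluster 8, where it gave 308 of 559 control mitotic UMIs and 188 of 395 control S-phase UMIs. Single injured cells there gave 205 of 528 mitotic and 153 of 681 S-phase UMIs. The ratios of cluster 8 without these cells were not computed. Without the top cell of each library the S-phase ratio of the class was 1.90 (1.69 to 2.14). At 1000 UMIs, 10 of 217 injured (4.61%, 2.23 to 8.31) and 3 of 305 control cells (0.984%, 0.203 to 2.85) were marked by S-phase members, and 4 of 217 injured (1.84%) and 2 of 305 control cells (0.656%) by mitotic members.

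**Figure D5:**
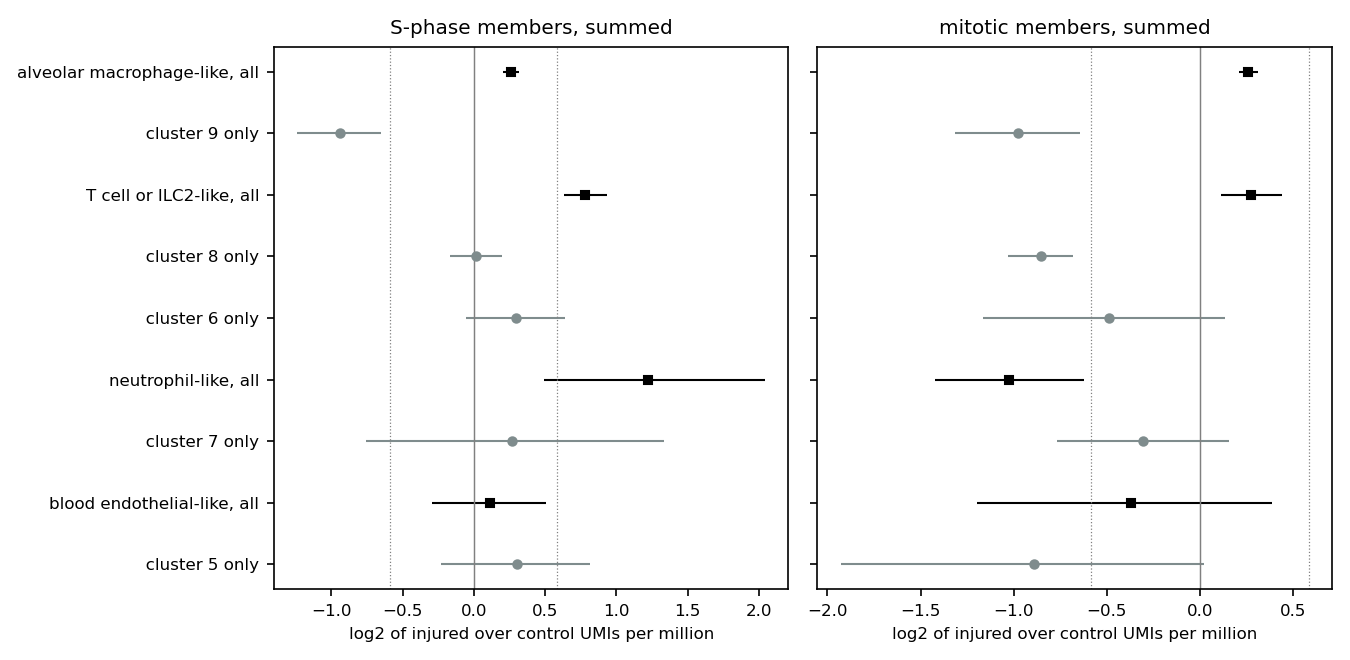
Log2 ratio of injured over control CPM of the summed S-phase members (left) and mitotic members (right), with 95% counting intervals, for 4 classes (black squares) and for those of their clusters with at least 50 cells in each library (grey circles). The T cell or ILC2-like mitotic ratio lies above 0 for the class and below 0 for clusters 8 and 6, and dotted lines mark 1.5-fold.

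B cell-like cells (57 injured, 315 control) had mitotic members at 98.4 CPM in injured cells and 210 CPM in control cells (0.47, 0.297 to 0.711) and S-phase members at 287 CPM in injured cells and 241 CPM in control cells (1.19, 0.911 to 1.54). Of the 331 control mitotic UMIs, 102 lay in 1 cell with 20 mitotic members, and Cenpa gave 195. Stmn1 had 2 UMIs in injured and 63 in control B cell-like cells, and Hmgb2 152 CPM in injured cells and 337 CPM in control cells (0.45, 0.31 to 0.63). The cDC2-like cells (83 injured, 68 control), a type 2 dendritic class whose cluster also held Xcr1, a type 1 marker, had mitotic members at 364 CPM in injured cells and 483 CPM in control cells (0.754, 0.635 to 0.897). A single cell gave 146 of the 321 injured and another 117 of the 232 control mitotic UMIs, and without them the ratio was 0.807 (0.634 to 1.03), whose interval includes 1. Of the members with at least 50 UMIs in that class, Hmgb2 had the lowest ratio, 176 CPM in injured cells and 498 CPM in control cells (0.35, 0.29 to 0.43). At 1000 UMIs, 1 of 71 injured and 4 of 54 control cDC2-like cells were marked as mitotic, with intervals of 0.0357% to 7.6% in injured and 2.06% to 17.9% in control cells.

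Neutrophil-like cells (587 injured, 126 control) had no marked cell at 1000 UMIs, yet their sets differed. The mitotic members stood at 118 CPM in injured cells and 240 CPM in control cells (0.492, 0.374 to 0.65), of which Kif23 alone gave 81 of 144 injured and 62 of 86 control UMIs (0.38, 0.27 to 0.54). The S-phase members stood at 111 CPM in injured cells and 47.4 CPM in control cells (2.33, 1.40 to 4.12), and Pcna had 71 UMIs in injured cells and 4 in control cells. Over all genes of the class the median log2 ratio was itself 0.55, and 3862 of 7840 genes tested were higher by the threshold. In cluster 7, the neutrophil cluster that both libraries filled (162 injured, 121 control), the ratios were 0.81 (0.588 to 1.11) for mitotic and 1.21 (0.593 to 2.51) for S-phase members, and both intervals included 1. Cluster 0, led by Csf1, Cd177 and Il1r2, held the other 425 injured and 5 control cells.

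In epithelial cells, 1 cell gave most mitotic UMIs of the control secretory-like and of the injured alveolar epithelial-like cells. In injured secretory-like cells the top cell gave 37 of 147. The S-phase ratios of both classes changed little without the top cells. Secretory-like cells (79 injured, 117 control), the airway class led by Scgb3a2 and Scgb1a1, had mitotic members at 260 CPM in injured cells and 134 CPM in control cells (1.94, 1.52 to 2.48) and S-phase members at 189 CPM in injured cells and 65.4 CPM in control cells (2.89, 2.09 to 4.04). In the control class 107 of 123 mitotic UMIs came from 1 cell, and without the top cell of each library the log2 ratio of the mitotic set was 3.65 in place of 0.96, while the S-phase ratio was 2.88 (1.98 to 4.23). Over all genes of the secretory-like class the median log2 ratio was itself 0.55, and 2315 of 4744 genes tested were higher by the threshold. Marked secretory-like cells at 1000 UMIs numbered 3 of 62 injured and 1 of 113 control. Alveolar epithelial-like cells (101 injured, 83 control) had 167 mitotic UMIs in the injured library and 0 in the control library. With 3 UMIs in place of 0 the log2 ratio was 2.66, and the exact interval of the ratio started at 5.07. Of the 167, 122 came from 1 cell with 17 mitotic members. Without it the log2 ratio fell to 0.78 and the start of the interval to 1.34. The S-phase members of this class had 264 UMIs (201 CPM) in injured cells and 16 UMIs (107 CPM) in control cells (1.87, 1.13 to 3.32). Without the top cell of each library that ratio was 1.93 (1.13 to 3.59). Over all genes of the class the median log2 ratio was itself 0.38, and 3977 of 9421 genes tested were higher by the threshold. No cell of this class was marked at 1000 UMIs, of 75 injured and 52 control cells. The exact upper limits of these shares were 4.80% in injured and 6.85% in control cells. The class differed in depth and make-up, with medians of 8566 UMIs in injured and 1218 in control cells. Of its clusters, cluster 18, led by Ager and Cldn18, had 83 injured and 20 control cells, and cluster 19, led by Sftpc and S100g, had 18 injured and 63 control cells. Tubb5 stood there at 349 CPM in injured cells and 148 CPM in control cells (2.36, 1.54 to 3.81) and Stmn1 at 154 CPM in injured cells and 416 CPM in control cells (0.37, 0.28 to 0.50).

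Blood endothelial-like cells (92 injured, 394 control) had 18 mitotic UMIs in the injured library and 75 in the control library (0.775, 0.436 to 1.31), and 37 of the 75 came from 1 cell. Without the top cell of each library the log2 ratio was 0.36 in place of -0.37. Of the members with at least 50 UMIs there, Stmn1 had the lowest ratio, at 159 CPM in injured cells and 404 CPM in control cells (0.39, 0.29 to 0.53). By the 1.5-fold threshold Stmn1 was lower in injured cells of the blood endothelial-like, alveolar epithelial-like, cDC2-like, B cell-like and neutrophil-like classes (the last with 6 injured and 9 control UMIs), and its ratio was 0.72 in all macrophage-like cells. Its ratio was 1.10 (0.88 to 1.38) in T cell or ILC2-like and 1.03 (0.75 to 1.41) in secretory-like cells. Classes present mainly in 1 library were not compared. Interstitial macrophage-like cells, led by C1qa and Ccl24, came to 344 injured and 11 control cells. They held 560 mitotic UMIs in the injured library, 50.7% of them in 1 cell, and 1 of 302 injured cells was marked as mitotic at 1000 UMIs. Classical monocyte-like cells, with 19 injured and 103 control cells, had 0 of 19 injured and 0 of 101 control cells marked.

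Beyond the members, 4 further lists of cell cycle genes were read over the whole library, against the same 21.5% higher and 17.3% lower among all genes. Of 37 other replication genes, 5 were higher and 2 lower. Among the highest were Chaf1a, a histone chaperone of the fork, at 11.9 CPM in the injured library and 7.25 CPM in the control library (1.64, 1.31 to 2.07), and the replication factors Mcm10, at 1.59 (1.08 to 2.36), and Cdc6, at 1.59 (1.06 to 2.41). The lowest were Pole2, a polymerase epsilon subunit, at 0.52 (0.38 to 0.70), and Rpa3, of the single-strand binding complex, at 0.65 (0.56 to 0.76). Of 68 other mitotic genes, 8 were higher and 10 lower. Espl1, the separase that cuts cohesin, had 15.5 CPM in the injured library and 5.37 CPM in the control library (2.88, 2.26 to 3.70). Mybl2, which encodes B-Myb, had 4.42 CPM in the injured library and 1.75 CPM in the control library (2.53, 1.63 to 4.02). Kif14 was at 2.46 (1.35 to 4.75) and Cenpi at 2.08 (1.32 to 3.38). The low end held Ndc80, the microtubule anchor of the kinetochore, at 0.50 (0.39 to 0.63), Cks2 at 0.54 (0.49 to 0.59), Esco2 at 0.54 (0.41 to 0.72) and Smc4, a condensin subunit, at 0.59 (0.55 to 0.62).

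Of 16 G1 cyclins, kinases and E2F factors, 3 were higher and 1 lower, and the D-type cyclins, which start the cycle, differed among themselves. Ccnd1 had 61.2 CPM in the injured library and 37.1 CPM in the control library (1.65, 1.496 to 1.83). Its largest holder in the injured library was the alveolar epithelial-like class, with 507 UMIs (385 CPM) in injured cells and 8 UMIs (53.7 CPM) in control cells (7.18, 3.61 to 16.7). Ccnd2 had 132 CPM in the injured library and 270 CPM in the control library (0.49, 0.47 to 0.51). In alveolar macrophage-like cells Ccnd2 stood at 99.4 CPM in injured cells and 404 CPM in control cells (0.246, 0.227 to 0.266), while in T cell or ILC2-like cells it stood at 499 CPM in injured cells and 344 CPM in control cells (1.45, 1.30 to 1.62). Ccnd3 had 117 CPM in the injured library and 129.8 CPM in the control library (0.90, 0.85 to 0.96), within the threshold. Cdk2 was at 1.58 (1.35 to 1.86) and E2f2 at 1.56 (1.36 to 1.79). Of 17 inhibitors and pocket proteins, 2 were higher and 2 lower. Cdkn2b, which encodes the CDK4 and CDK6 inhibitor p15, had 17.3 CPM in the injured library and 4.37 CPM in the control library (3.95, 3.05 to 5.18). Of its injured UMIs, 59.3% lay in alveolar epithelial-like cells, a class with 6.61% of all injured and 0.93% of all control UMIs. Within that class Cdkn2b had 204 UMIs (155 CPM) in injured cells and 10 UMIs (67.1 CPM) in control cells (2.31, 1.23 to 4.89). Cdkn2a, the p16 and Arf locus, was at 2.73 (1.89 to 4.03). Btg2, an antiproliferative p53 target, was at 0.64 (0.63 to 0.66) and Trp53 at 0.62 (0.56 to 0.68). In alveolar macrophage-like cells Btg2 stood at 83.0 CPM in injured cells and 501 CPM in control cells (0.166, 0.152 to 0.18).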

How the data were processed

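Whole lung digests were profiled with the 10x 3′ kit, version 3. The deposited matrices hold raw UMI counts per gene and cell, and their headers name Cell Ranger 4.0.0 as the software. The build is mm10, per the submitters' processing notes. Cells with at least 500 UMIs, 200 genes and at most 15% mitochondrial UMIs were kept, and doublets scored against 40 neighbours were removed at 0.8% per 1000 cells. Clusters (Leiden, resolution 1, 2000 variable genes, 30 components) were built without 290 cell cycle and histone genes and named from 28 marker lists. Clusters whose lists met were merged (T cell or ILC2, alveolar epithelial) after the clusters were seen. Counts were summed per class and library. Intervals are exact Poisson, conditional binomial or Clopper-Pearson. In log2 ratios and calls a count of 0 was replaced by 3 counts. With 1 library per group there was no test. Named were all 39 members, in a class up to 6 highest and 6 lowest ratios with at least 50 UMIs, and of other lists up to 4 each way, of which 1 gene is not reported here. The members and lists were chosen with earlier results of these data known. Calls were checked on simulated counts. Python 3.11.15, numpy 2.4.6, scipy 1.17.1, pandas 2.3.3, scikit-learn 1.9.0, python-igraph 0.11.9, leidenalg 0.10.2 and matplotlib 3.10.9 were used. Alternatives changed the scaling, count minimum, added CPM, mitochondrial limit, doublets, clustering, thinning depth and cells left out.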

Additional observations from a re-analysis of the deposited data

Results flagged for a closer look

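In 4 classes the summed mitotic members moved in opposite directions between injured and control lung, and the difference between classes was not tested. The log2 ratio was -1.09 in B cell-like, -1.02 in neutrophil-like and 0.96 in secretory-like cells. In alveolar epithelial-like cells it was 2.66 with 3 UMIs in place of 0, and the exact interval of the ratio started at 5.07. Over all genes the median log2 ratio was 0.11 in B cell-like, 0.55 in neutrophil-like, 0.55 in secretory-like and 0.38 in alveolar epithelial-like cells. A single cell gave 102 of the 331 control UMIs in B cell-like cells, 107 of the 123 control UMIs in secretory-like cells and 122 of the 167 injured UMIs in alveolar epithelial-like cells. Cenpa gave most of the control mitotic UMIs in B cell-like cells, and Kif23 most of those in neutrophil-like cells of both libraries. In neutrophil cluster 7, which both libraries filled, the mitotic ratio was 0.81 (0.588 to 1.11). In neutrophil-like cells no cell of 541 injured or 113 control cells was marked at 1000 UMIs.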

How the results depend on the processing

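Of the values that answer a comparison, 196 stayed within the counting interval or within 1.5 times of the reported one under the alternatives, and the other 50 are given here. The cause was not tested. Ratios of S-phase shares that had been past 1.5 fell below 1 at 500 UMIs per cell, to 0.936 over whole libraries and 0.676 in alveolar macrophage-like cells. Of 138 alternative log2 ratios of a set in a class, 11 changed sign, 3 of them within the interval (blood endothelial-like mitotic 0.30 at a 25% limit and 0.36 without the top cell, and cDC2-like S-phase 0.06 with cell cycle genes kept). The 6 members called higher over the whole library became 2 with 10 CPM added and 10 with each cell weighted the same. The 1 called lower became 4 with size factors, 2 with each cell weighted the same, 2 without alveolar epithelial-like cells, 3 without neutrophil-like cells, 4 without alveolar macrophage-like cells (chosen after seeing the data) and 0 at a 10% mitochondrial limit. The other lists, with 18 genes higher and 15 lower, had 3 and 5 with 10 CPM added, 34 higher with each cell weighted the same, and 29 and 9 both at the 10% limit and with doublets kept. The member ratios kept their sign for 25 of 39 members with each cell weighted the same and for 29 of 39 without alveolar macrophage-like cells.

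The mitotic log2 ratio of T cell or ILC2-like cells (0.28 as reported) was -0.60 at a 10% and 0.63 at a 25% mitochondrial limit, 1.09 with cell cycle genes kept in the clustering, 0.45 without the top cell, -0.49 in cluster 6 and -0.85 in cluster 8. In alveolar macrophage-like cells (0.26 as reported) it was 0.43 at the 10% limit, 0.19 with cell cycle genes kept, 0.35 with each cell weighted the same and -0.98 in cluster 9. It was -2.60 in B cell-like cells with doublets kept and -0.30 in neutrophil cluster 7. With each cell weighted the same it was 1.93 in alveolar epithelial-like, 0.57 in blood endothelial-like (-0.37 as reported) and 2.12 in secretory-like cells. Without the top cell it was 0.78 in alveolar epithelial-like and 3.65 in secretory-like cells. The S-phase log2 ratio of T cell or ILC2-like cells was 1.21 with cell cycle genes kept, 0.58 with each cell weighted the same, 0.30 in cluster 6 and 0.015 in cluster 8. It was 0.34 at the 10% limit and -0.94 in cluster 9 of alveolar macrophage-like cells, 0.27 in neutrophil cluster 7 and -0.35 in B cell-like cells with doublets kept (0.25 as reported). In cDC2-like cells (-0.02 as reported) it was 0.27 at the 10% limit, -0.62 at the 25% limit and -0.80 with each cell weighted the same. The share of marked cells that were alveolar macrophage-like was 61.4% injured and 61.6% control with at least 2 members, 83.1% injured with at least 5 and 81.9% injured with at least 10. The broad set in strongly mitotic macrophage-like cells stood at -0.96 when members were counted at 10000 UMIs. Single clusters with fewer than 50 cells in a library gave no value. The values without a top cell, in single clusters, at 10000 UMIs and with at least 10 members were chosen after seeing the data.

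No paired analysis was possible because each group is 1 library. Leaving out a replicate was not possible for the same reason. Shares depend on depth, and a shallow class can show few members per cell.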
